A study of Mus musculus with 9 samples.

Results

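The 8 genes described here encode the light chains of cardiac myosin and the proteins that regulate or anchor the thick filament of the sarcomere. They are Myl2, Myl3, Myl4, Myl7, Mylk3, Mybpc3, Myom1 and Myom2, chosen by name from 23457 genes in the count table. Adult hearts of 4 mice labelled germline Parkin knockout (KO) were compared with hearts of 5 wild-type (WT) mice, and all 9 mice were on the C57BL/6J background. Parkin is an E3 ubiquitin ligase that marks damaged mitochondria for removal, and the knockout is germline, so no cell type of the KO mice is labelled as spared. The tissue label names the whole heart, while the extraction protocol names the ventricular apex. RNA was poly(A)-selected and sequenced single-end without strand information, 1 library a heart.

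Each cardiac myosin molecule has 2 heavy chains, and each heavy chain carries 1 essential and 1 regulatory light chain. In the ventricle the regulatory chain is the product of Myl2 and the essential chain that of Myl3, while the atrium uses Myl7 and Myl4 in their place. Mylk3 encodes the cardiac myosin light chain kinase, which phosphorylates the Myl2 product. Mybpc3 encodes cardiac myosin-binding protein C, which restrains the myosin heads, and the myomesins encoded by Myom1 and Myom2 cross-link thick filaments at the M-band.

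The atrial and ventricular chains are paralogues, so it matters for the counts how much sequence they share. On GRCm38 (GENCODE M21), 64.6% of the aligned coding bases of Myl7 and Myl2 were identical, and 78.1% of those of Myl4 and Myl3. The 60-base coding stretches around the longest run that each pair shares follow, with the run in capitals. The Myl7 and Myl2 stretches span an exon junction, and their coordinates run from the first to the last base.
Myl7 (chr11:5898207-5898456, minus strand): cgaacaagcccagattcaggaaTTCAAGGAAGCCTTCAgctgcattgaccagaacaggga
Myl2 (chr5:122101808-122102724, plus strand): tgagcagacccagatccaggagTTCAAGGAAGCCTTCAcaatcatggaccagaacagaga
Myl4 (chr11:104584507-104584566, plus strand): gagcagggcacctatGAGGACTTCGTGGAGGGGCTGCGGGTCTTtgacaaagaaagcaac
Myl3 (chr9:110767976-110768035, plus strand): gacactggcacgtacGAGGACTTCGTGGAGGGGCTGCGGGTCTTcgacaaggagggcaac
The shared run was 16 bases for Myl7 and Myl2 and 29 bases for Myl4 and Myl3. The read length is not given in the sources used here, so whether a read could fit both members of a pair was not tested, and the very low Myl4 and Myl7 counts are uncertain on that account.

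Promoter windows from RefSeq (GRCm38.p6), 250 bases before to 50 after an annotated start, matched 7 of the 8 genes. They were searched on both strands for 6 short motifs of muscle and general promoters. These were the binding site of serum response factor (the CArG box), which 1.63% of 32851 windows of this kind held, and the MEF2 site, which 3.19% held. The binding site of TEAD factors was searched as CATTCC, which 14.7% of windows held. The GATA factor site was searched as AGATAA, which 11.2% held. The start site box was searched as TATAAA, which 13.6% held and which can overlap a MEF2 or CArG match. The E-box was searched as CANNTG, which 72.3% held. The 4 windows that follow were chosen because they hold the rarer CArG or MEF2 letters, with every match other than the E-box in capitals.
Myl3 (chr9:110763428-110763727, plus strand): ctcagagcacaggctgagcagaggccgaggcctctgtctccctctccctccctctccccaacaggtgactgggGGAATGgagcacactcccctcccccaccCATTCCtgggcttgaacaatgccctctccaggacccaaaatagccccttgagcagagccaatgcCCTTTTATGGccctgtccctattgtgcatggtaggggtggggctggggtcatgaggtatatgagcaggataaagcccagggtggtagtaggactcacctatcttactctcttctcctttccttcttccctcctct
Myl7 (chr11:5898733-5899032, minus strand): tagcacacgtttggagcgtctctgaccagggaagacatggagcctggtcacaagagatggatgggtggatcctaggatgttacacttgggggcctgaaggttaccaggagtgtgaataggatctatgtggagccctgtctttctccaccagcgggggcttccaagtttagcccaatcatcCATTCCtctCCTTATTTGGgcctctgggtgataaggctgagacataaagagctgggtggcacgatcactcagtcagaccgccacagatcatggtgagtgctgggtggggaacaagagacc
Myom1 (chr17:71019307-71019606, plus strand): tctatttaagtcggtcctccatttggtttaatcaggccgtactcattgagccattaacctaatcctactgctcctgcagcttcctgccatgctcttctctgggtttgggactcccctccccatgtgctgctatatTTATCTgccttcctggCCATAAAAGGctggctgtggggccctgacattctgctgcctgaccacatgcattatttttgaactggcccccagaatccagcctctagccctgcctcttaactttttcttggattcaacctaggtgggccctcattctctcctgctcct
Mybpc3 (chr2:91117894-91118193, plus strand): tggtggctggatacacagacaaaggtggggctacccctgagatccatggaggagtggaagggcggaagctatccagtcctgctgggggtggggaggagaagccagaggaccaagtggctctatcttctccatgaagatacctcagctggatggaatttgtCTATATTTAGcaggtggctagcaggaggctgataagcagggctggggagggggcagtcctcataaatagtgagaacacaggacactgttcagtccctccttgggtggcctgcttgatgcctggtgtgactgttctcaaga
The CArG box lay at -85 to -76 in Myl3, at -61 to -52 in Myl7 and at -99 to -90 in Myom1, counted from the annotated start, and the MEF2 match of Mybpc3 lay at -90 to -81. These letters describe the windows and are not shown to be bound. The Myl3 and Myom1 windows lie inside the GENCODE spans of these genes, which begin at chr9:110741861 and chr17:71002633. The RefSeq starts used for the windows therefore differ from the GENCODE starts. A CArG box stood before the RefSeq start of Myl3, which was higher in labelled KO hearts, and before that of Myom1, which was not called. It also stood before Myl7, which was not tested in the counts.

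Assigned reads ran from 11637206 to 15777844 in KO hearts and from 4415183 to 20827699 in WT hearts, with WT hearts 2 and 3 the shallowest. Park2, the Parkin gene, had 82, 53, 54 and 37 reads in KO hearts 1 to 4, against 74, 14, 8, 44 and 16 reads in WT hearts 1 to 5. In CPM, the read count over the library size after edgeR's TMM scaling, the groups overlapped at 2.65 to 3.90 in KO hearts and 1.86 to 4.86 in WT hearts, and the log2 fold change, KO over WT, was 0.059 ± 0.26 (SE; edgeR quasi-likelihood test, adjusted p = 0.862). The counts are per gene, and the labels do not say which part of the gene the allele lacks, so these reads do not check the genotype of a heart. Hearts are therefore called labelled KO throughout, and every direction below rests on the labels. Over all 12640 genes tested by edgeR, 51.4% passed an adjusted p of 0.05, with 26.2% higher and 25.2% lower in labelled KO hearts. Fold changes over all genes followed GC content and transcript length, so each member is also given from a fit with those trends removed, in which 38.1% of 12511 genes passed, 18.6% higher and 19.4% lower. Bulk counts cannot tell fewer cells of a type from less RNA per cell.

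Of the 8 genes, 7 passed the filter on low counts, and 4 of these rose in labelled KO hearts: Myl3, Mylk3, Mybpc3 and Myom2. By edgeR 0 of the 7 fell, and 0 were lower at an unadjusted p under 0.05. DESeq2 and limma-voom called the same numbers, 4 higher and 0 lower. Myl2, Myl4 and Myom1 did not pass, and Myl7 was not tested. By edgeR 26.2% of all genes tested were higher and 25.2% lower. The median log2 fold change of the 7 members was 0.62, against -0.0059 over all genes tested. With the GC and length trends removed, the same 4 genes passed and the median was 0.53, against -0.0046 over all genes. There 18.6% of all genes were higher and 19.4% lower.

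**Figure D1:**
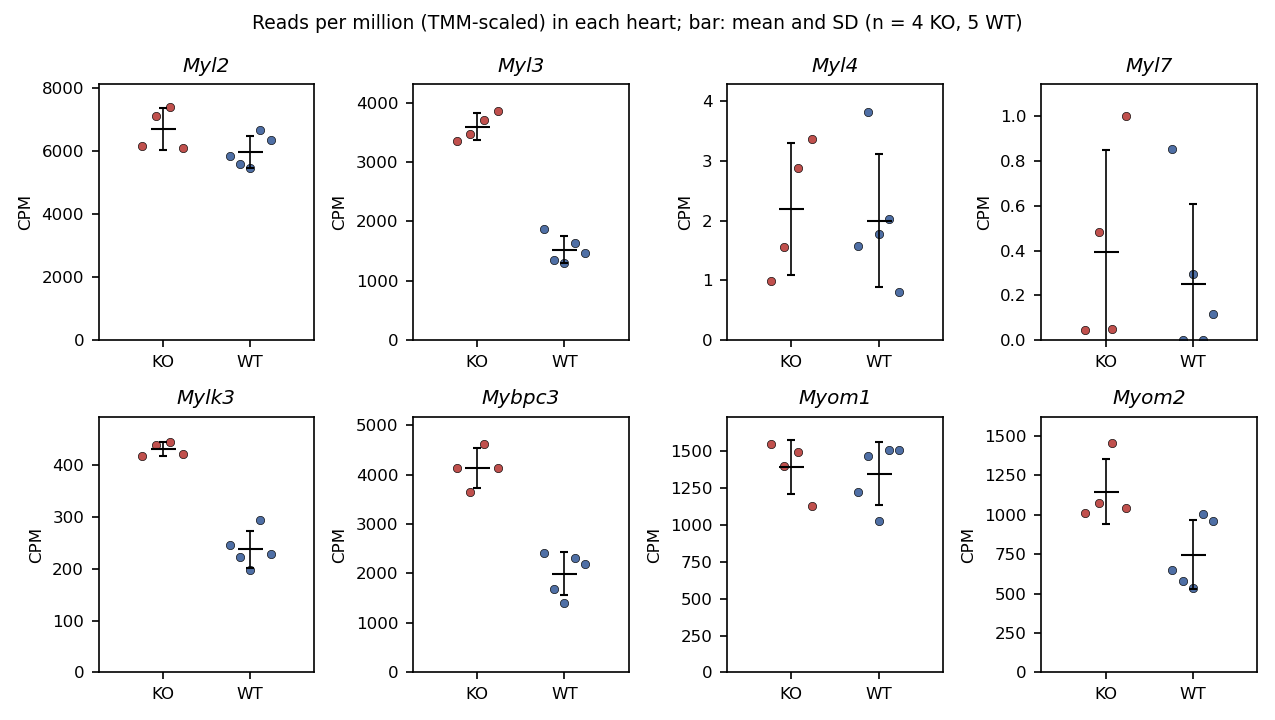
Level of each of the 8 genes in CPM (y axes, linear, starting at 0) in labelled KO hearts (left) and WT hearts (right); each point is 1 heart and each bar a mean with its SD (n = 4 and 5). The groups do not overlap for Myl3, Mylk3, Mybpc3 and Myom2, and they overlap for Myl2, Myl4, Myl7 and Myom1.

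Of the ventricular light chains, the essential chain gene Myl3 rose and the regulatory chain gene Myl2 did not pass the test. Myl3 (chr9:110741861-110769798, GRCm38, plus strand) had 3354, 3473, 3702 and 3857 CPM in labelled KO hearts 1 to 4, against 1865, 1347, 1301, 1635 and 1461 CPM in WT hearts 1 to 5. Every labelled KO heart was above every WT heart, with means of 3596 ± 226 CPM in labelled KO hearts and 1522 ± 231 CPM in WT hearts (SD, n = 4 and 5). Of all genes tested, 41.6% had groups that did not overlap, 22.3% with the labelled KO hearts higher and 19.3% with them lower. The log2 fold change was 1.24 ± 0.14 (SE, edgeR adjusted p = 1.22e-05), a fold of 2.36. With the trends removed it was 0.66 ± 0.10 (edgeR adjusted p = 1.64e-04), a fold of 1.58. Myl3 overlaps Pth1r on the other strand, and without strand information reads of the overlap cannot be told apart.

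Myl2 (chr5:122100951-122113472, plus strand) was the most highly expressed of the 8 genes. It had 6144, 7109, 7413 and 6106 CPM in labelled KO hearts 1 to 4, against 5847, 5594, 5462, 6653 and 6342 CPM in WT hearts 1 to 5. The groups overlapped, since labelled KO hearts 1 and 4 lay below WT hearts 4 and 5. Its log2 fold change was 0.16 ± 0.14 (SE, edgeR adjusted p = 0.328), and it was -0.013 with the trends removed (edgeR adjusted p = 0.932). Myl2 overlaps Ccdc63 on the other strand.

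The ventricular chains stood in a different proportion in the 2 groups. Myl3 had 0.546, 0.489, 0.499 and 0.632 reads per Myl2 read in labelled KO hearts 1 to 4, against 0.319, 0.241, 0.238, 0.246 and 0.230 in WT hearts 1 to 5. In FPKM, a level per transcript length and sequencing depth, the Myl3 value was 0.335 ± 0.040 of the Myl2 value in labelled KO hearts and 0.158 ± 0.022 in WT hearts (SD, n = 4 and 5). The groups did not overlap. This proportion, like the others below except those of Myl7 to Myl2 and Myl4 to Myl3, was computed after the values were seen and carries no test. Neither it nor any proportion below has the GC and length trends removed. In the fit without those trends the log2 fold changes were 0.66 for Myl3 and -0.013 for Myl2, against 1.24 and 0.16 in the count fit.

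The atrial light chains were near the detection limit in both groups. Myl4 (chr11:104550663-104595753, plus strand) had 21, 26, 57 and 47 reads in labelled KO hearts 1 to 4, against 35, 11, 6, 29 and 7 reads in WT hearts 1 to 5. In CPM the ranges were 0.998 to 3.36 in labelled KO hearts and 0.812 to 3.82 in WT hearts, which overlap. The log2 fold change was 0.28 ± 0.41 (SE, edgeR adjusted p = 0.584) and turned to -0.29 with the trends removed (edgeR adjusted p = 0.609), so no direction can be given. Myl4 overlaps 4 annotated noncoding or pseudogene entries.

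Myl7 (chr11:5896637-5898782, minus strand) had 1, 8, 1 and 14 reads in labelled KO hearts 1 to 4, against 19, 0, 1, 0 and 1 reads in WT hearts 1 to 5. Most reads in each group came from 1 or 2 hearts, namely labelled KO hearts 2 and 4 and WT heart 1. The 0 in WT heart 2 allows up to 18.6 Myl7 reads per 100000 Myl2 reads and the 0 in WT heart 4 up to 3.17, taking 3 reads as the limit, which covers counting error only. No fold from read counts is given for Myl7. On log2(FPKM + 1), with limma, the difference was 0.41 as deposited (adjusted p = 0.441) and -0.087 after centring each heart on its median (adjusted p = 0.876), and with a pseudocount of 0.01 it was 2.27 (adjusted p = 0.272), so no direction can be given.

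Set against their ventricular paralogues per length, both atrial chains were scarce. Myl7 FPKM per 100000 Myl2 FPKM was 0.859, 7.53, 0.758 and 18.2 in labelled KO hearts 1 to 4, against 16.2, 0, 6.03, 0 and 2.03 in WT hearts 1 to 5, where each 0 was a heart with 0 Myl7 reads. Myl4 FPKM per 100000 Myl3 FPKM was 30.4, 46.1, 79.6 and 89.2 in labelled KO hearts 1 to 4, against 86.0, 289, 140, 127 and 56.8 in WT hearts 1 to 5. Both proportions overlapped between the groups, and the Myl3 part of the second was higher in labelled KO hearts.

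**Figure D2:**
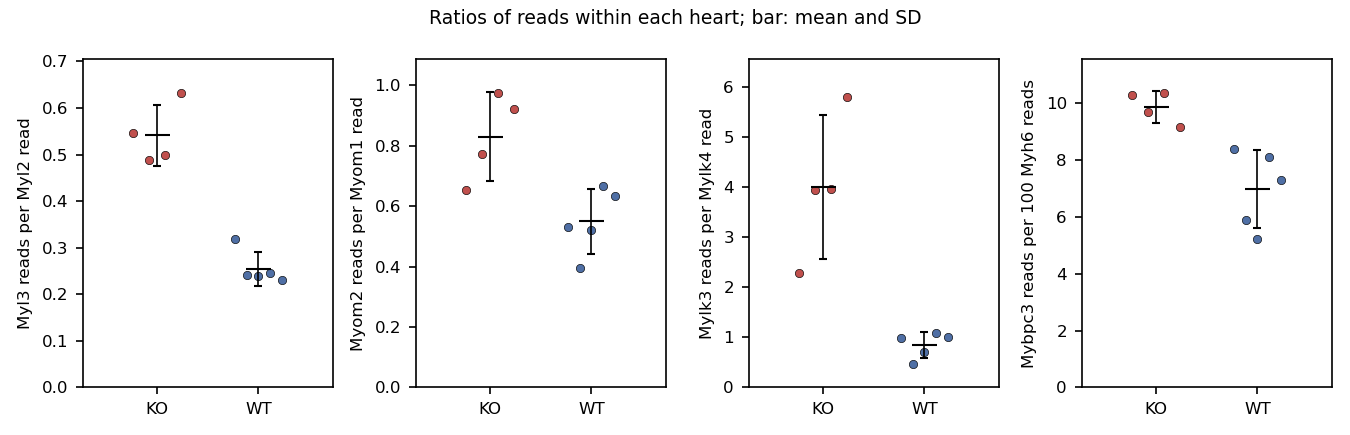
Proportions of reads between pairs of genes (y axes, linear, starting at 0) in labelled KO hearts (left) and WT hearts (right), each point 1 heart. Myl3 per Myl2 read runs from 0.489 to 0.632 in labelled KO hearts and from 0.230 to 0.319 in WT hearts, and Mylk3 per Mylk4 read is likewise separate between the groups.

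Markers of atrial and ventricular muscle were read beside these chains. Among 10 atrial markers, 8 were tested and 2 were higher and 2 lower in labelled KO hearts. Over all genes tested, 26.2% were higher and 25.2% lower. The atrial markers summed to 648 to 887 CPM in labelled KO hearts and 438 to 489 CPM in WT hearts. Of these sums, Pam held 313 to 432 CPM in labelled KO hearts and 264 to 309 CPM in WT hearts. Nppa held 133 to 473 CPM in labelled KO hearts and 21.6 to 40.8 CPM in WT hearts. Nppa, the atrial natriuretic peptide gene that ventricles also re-express under load, was higher (log2 fold change 2.93 ± 0.30, SE, edgeR adjusted p = 7.98e-06). The other called atrial markers were Pam, higher at a log2 fold change of 0.45, and Kcna5 and Tbx5, lower at -1.14 and -0.80. Their edgeR adjusted p-values were 0.0065, 2.5e-04 and 4.4e-04. With the trends removed they stood at 0.49, -1.46 and -0.89, each still called. Kcna5 had 17.2 to 20.1 CPM in labelled KO hearts and 28.5 to 58.0 CPM in WT hearts. Tbx5 had 37.9 to 40.4 and 51.2 to 80.3 CPM. Whether these listed genes mark atrial tissue in these samples was not tested. The atrial sarcolipin gene Sln had 0 reads in each labelled KO heart, against 3, 0, 0, 0 and 4 reads in WT hearts 1 to 5, and Bmp10 had 1 read in labelled KO hearts and 1 in WT hearts. The 7 ventricular markers summed to 824 to 955 CPM in labelled KO hearts and 1249 to 1881 CPM in WT hearts. Of these markers, 1 was higher and 3 lower, beside 26.2% higher and 25.2% lower over all genes tested. Each of the 7 had reads in every heart. The lower ones were Lbh, Gja1 and Kcnd2, at log2 fold changes of -0.85, -0.68 and -1.01, which were -0.93, -0.24 and -0.50 with the trends removed, where Gja1 lost its call. The higher one was the ventricular transcription factor gene Irx4, at 28.2 to 33.9 CPM in labelled KO hearts and 18.4 to 28.3 CPM in WT hearts, which overlap, with a log2 fold change of 0.39 in the count fit (edgeR adjusted p = 0.038) and -0.33 with the trends removed (edgeR adjusted p = 0.054). These 4, and Pam, Kcna5 and Tbx5, were named after their values were seen. The part of atrial tissue in the Myl4 and Myl7 reads was not tested.

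The kinase gene Mylk3 rose in labelled KO hearts. Mylk3 (chr8:85324303-85386345, minus strand) had 418, 440, 445 and 422 CPM in labelled KO hearts 1 to 4, against 246, 222, 197, 295 and 228 CPM in WT hearts 1 to 5. The labelled KO hearts lay close together and above every WT heart, with means of 431 ± 13.1 CPM in labelled KO hearts and 238 ± 36.4 CPM in WT hearts (SD, n = 4 and 5). Its log2 fold change was 0.86 ± 0.13 (SE, edgeR adjusted p = 9.1e-05), a fold of 1.81, and with the trends removed 0.85 ± 0.11 (edgeR adjusted p = 6.0e-05). An annotated antisense gene, AA672651, overlaps Mylk3.

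Mylk4, a second light chain kinase gene expressed in heart, fell in labelled KO hearts. It had 120 ± 46.1 CPM in labelled KO hearts and 302 ± 103 CPM in WT hearts (SD, n = 4 and 5), with no overlap. The log2 fold change was -1.33 ± 0.25 (SE, edgeR adjusted p = 5.66e-04) and -0.86 with the trends removed (edgeR adjusted p = 0.0062). Mylk4 was chosen after its values were seen. Mylk3 had 2.28, 3.94, 3.97 and 5.79 reads per Mylk4 read in labelled KO hearts 1 to 4, against 0.987, 0.460, 0.701, 1.09 and 1.004 in WT hearts 1 to 5. Per length, the Mylk3 FPKM was 7.28 ± 2.44 times the Mylk4 FPKM in labelled KO hearts and 1.57 ± 0.50 times in WT hearts (SD, n = 4 and 5), and 1 WT heart had less Mylk3 than Mylk4.

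Mybpc3 rose in labelled KO hearts. Mybpc3 (chr2:91118144-91136516, plus strand, with no overlapping gene) had 4126, 3643, 4625 and 4124 CPM in labelled KO hearts 1 to 4, against 2406, 1686, 1405, 2314 and 2187 CPM in WT hearts 1 to 5. The groups did not overlap, with means of 4130 ± 401 CPM in labelled KO hearts and 2000 ± 433 CPM in WT hearts (SD, n = 4 and 5). The log2 fold change was 1.05 ± 0.17 (SE, edgeR adjusted p = 1.45e-04), a fold of 2.06. With the trends removed it was 0.56 ± 0.15 (edgeR adjusted p = 0.0082), a fold of 1.47.

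Mybpc3 and Myl3 also stood higher against reads of the heavy chain gene Myh6. Mybpc3 had 10.3, 9.68, 10.3 and 9.15 reads per 100 reads of Myh6, the main adult heavy chain gene of the mouse ventricle, in labelled KO hearts 1 to 4, against 8.37, 5.89, 5.22, 8.10 and 7.27 in WT hearts 1 to 5. Myl3 had 8.28 to 9.23 reads per 100 Myh6 reads in labelled KO hearts, against 4.71 to 6.49 in WT hearts. Neither proportion to Myh6 overlapped between the groups. Both leave out the heavy chain gene Myh7, at 2140 to 4693 CPM in labelled KO hearts and 169 to 1491 CPM in WT hearts. They therefore do not give the proportion to both heavy chains together.

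The 2 myomesin genes differed in what was measured. Myom2 (chr8:15057653-15133541, plus strand), whose product is typical of fast and adult cardiac M-bands, had 1011, 1076, 1454 and 1041 CPM in labelled KO hearts 1 to 4, against 652, 580, 534, 1005 and 956 CPM in WT hearts 1 to 5. The groups were separate only narrowly, with labelled KO heart 1 just above WT heart 4. A pseudogene on the other strand, Gm15678, overlaps Myom2. Myom2 had a log2 fold change of 0.62 ± 0.19 (SE, edgeR adjusted p = 0.0145), a fold of 1.54, and 0.53 with the trends removed (edgeR adjusted p = 0.0285). The call was lost without labelled KO heart 3, the highest, at 0.48 (edgeR adjusted p = 0.066), and without WT hearts 2 and 3, the shallowest, at 0.39 (edgeR adjusted p = 0.10).

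Myom1 (chr17:71002633-71126856, plus strand), the myomesin found in all striated muscle, had 1548, 1395, 1490 and 1130 CPM in labelled KO hearts 1 to 4, against 1225, 1465, 1024, 1509 and 1506 CPM in WT hearts 1 to 5. The groups overlapped, and the log2 fold change was 0.047 ± 0.15 (SE, edgeR adjusted p = 0.811). Myom1 overlaps Myl12a on the other strand and a noncoding gene. Myom2 had 0.830 ± 0.146 reads per Myom1 read in labelled KO hearts and 0.550 ± 0.107 in WT hearts (SD, n = 4 and 5), and these proportions overlapped.

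**Figure D3:**
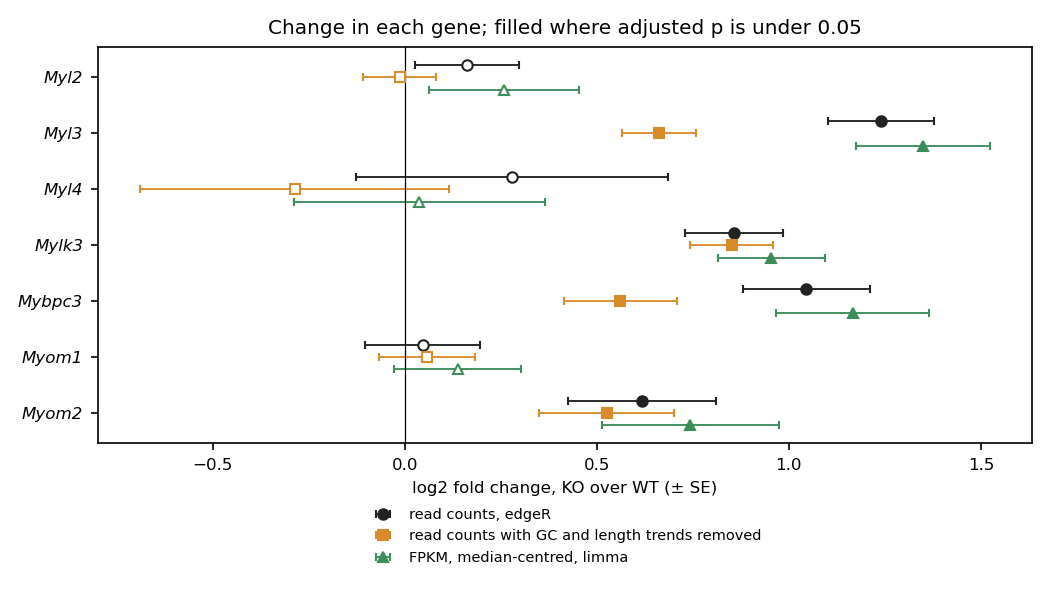
Log2 fold change, labelled KO over WT (x axis), of the 7 genes tested in the counts, from read counts, with GC and length trends removed, and from median-centred FPKM; lines are standard errors and filled symbols mark an adjusted p under 0.05. Myl7 is not drawn. Removing the trends brings Myl3 to 0.66 and Mybpc3 to 0.56 and leaves Mylk3 at 0.85.

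The deposited FPKM values put the genes on a per-length scale. Over all 12637 genes tested the FPKM values were higher in labelled KO hearts, with a median log2 difference of 0.44, so FPKM changes are given after each heart was centred on its median. On log2(FPKM + 1), which understates changes of low genes, limma gave 1.35 for Myl3, 0.95 for Mylk3, 1.17 for Mybpc3 and 0.74 for Myom2 (adjusted p = 3.25e-04, 5.42e-04, 0.00109 and 0.0203). These 4 of the 8 genes were called, and 0 were lower, also at an unadjusted p under 0.05. In that fit 53.9% of all genes were called at an adjusted p under 0.05, 25.4% higher and 28.4% lower. Without centring, Myl2 and Myom1 were called as well, where 53.3% of all genes were called, 47.2% higher and 6.09% lower. FPKM per read, relative to that of Myl2 in the same heart, varied between hearts by at most 0.00746% for Myl3, Myl4, Myl7, Mylk3, Mybpc3 and Myom2 and by 2.41% for Myom1, so for these genes the FPKM values are not a measurement independent of the counts. This did not hold for every gene, since Myh6 is listed at 0 FPKM in labelled KO hearts 1 and 3, which had 845850 and 884771 Myh6 reads.

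The order of the levels was the same in both groups. Mean FPKM in labelled KO hearts was 18928 ± 2053 for Myl2, 6274 ± 176 for Myl3, 1270 ± 142 for Mybpc3, 326 ± 61.1 for Myom1, 293 ± 53.5 for Myom2, 183 ± 9.91 for Mylk3 and 3.87 ± 1.81 for Myl4 (SD, n = 4). In WT hearts it was 11516 ± 3073 for Myl2, 1844 ± 683 for Myl3, 429 ± 174 for Mybpc3, 214 ± 56.6 for Myom1, 131 ± 54.2 for Myom2, 69.4 ± 24.1 for Mylk3 and 2.33 ± 1.02 for Myl4 (SD, n = 5). Myl7 was last, at 0.159 to 2.96 FPKM in labelled KO hearts and 0 to 2.31 FPKM in WT hearts. The ranges of neighbours overlapped for Myom1 with Myom2 and for Myl4 with Myl7 in labelled KO hearts. In WT hearts they also overlapped for Mybpc3 with Myom1 and for Myom2 with Mylk3. Myom1 was above Myom2 in 2 of 4 labelled KO hearts and in 5 of 5 WT hearts.

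Within groups, the genes varied together to unlike degrees. After each group mean was subtracted, Pearson's r of log2 CPM over the 9 hearts was 0.87 for Myl2 with Myom2, 0.82 for Myl3 with Mybpc3, 0.75 for Mylk3 with Mybpc3, 0.31 for Myl2 with Myl3 and -0.028 for Myl3 with Myom1. Of 6850 genes averaging at least 10 CPM, the closest to Myl3 included Fam73b (r = 0.986) and Pwp2 (0.981). The closest to Myl2 included Smg6 (0.897) and Acss1 (0.896), and those closest to Myl4 were Cgnl1 (0.923), Pfkfb3 (0.917) and Lrrc8c (0.914). These are descriptions over hearts that share depth and composition differences.

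Other myosin light chain genes, chiefly of smooth, nonmuscle and skeletal muscle, numbered 8, of which 6 were tested. By edgeR 0 were higher and 0 lower, with 1 higher and 1 lower at an unadjusted p under 0.05, while DESeq2 and limma-voom each called 1 higher. Their median log2 fold change was 0.09, against -0.0059 over all genes, of which 26.2% were higher and 25.2% lower by edgeR. The nonmuscle regulatory chain gene Myl12a stood at 0.35 ± 0.14 (SE, edgeR adjusted p = 0.056) and the skeletal essential chain gene Myl1 at -0.69 ± 0.32 (edgeR adjusted p = 0.078). With the trends removed 0 were higher and 1 lower, with 1 higher and 4 lower at an unadjusted p under 0.05, and the median was -0.37. In that fit 18.6% of all genes were higher and 19.4% lower. The gene called there was Myl6, the nonmuscle essential chain gene, at -0.39 (edgeR adjusted p = 0.027), against -0.035 in the count fit, and Myl1 was not called (edgeR adjusted p = 0.105). The 5 smooth muscle markers summed to 581 to 810 CPM in labelled KO hearts and 354 to 586 CPM in WT hearts, with 1 of 5 higher and 0 lower by edgeR (0 and 0 with the trends removed, 1 higher at an unadjusted p under 0.05), and their part in these values was not tested.

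Of 15 genes for light chain phosphorylation, 14 were tested, and 3 were higher and 6 lower in labelled KO hearts, with a median of -0.25. Over all genes tested, 26.2% were higher and 25.2% lower, with a median of -0.0059. Rock2 and Rock1, kinase genes whose products inhibit myosin phosphatase, fell by 2.08 ± 0.21 and 1.60 ± 0.21 on the log2 scale (SE, edgeR adjusted p = 6.9e-06 and 4.3e-05). Camk2d, the main cardiac CaM kinase II gene, fell by 1.03 ± 0.15 (edgeR adjusted p = 7.4e-05). Ppp1r12c, a myosin phosphatase targeting subunit gene, rose by 1.09 ± 0.14 (edgeR adjusted p = 3.8e-05). With the trends removed these were -1.38, -0.80, -0.49 and 0.27 for Rock2, Rock1, Camk2d and Ppp1r12c, and 5 genes of the list were higher and 6 lower. Of all genes in that fit, 18.6% were higher and 19.4% lower. Dapk3 lost its call in that fit, and Ppp1r12a, lower at -0.46, turned higher at 0.29 (edgeR adjusted p = 0.041).

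Of 19 thick filament and M-band partners, 16 were tested, and 11 were higher and 1 lower, with a median of 0.66. The shares over all genes tested were 26.2% higher and 25.2% lower, with a median of -0.0059. Obsl1, which encodes a myomesin-binding protein of the M-band, rose by 1.46 ± 0.16 (SE, edgeR adjusted p = 8.9e-06). Unc45b, a myosin chaperone gene, rose by 0.99 ± 0.13 and Trim54, which encodes the sarcomeric ring finger protein MuRF3, by 1.03 ± 0.15 (edgeR adjusted p = 3.6e-05 and 8.7e-05). With the trends removed these were 0.68 for Obsl1, 0.64 for Unc45b and 0.27 for Trim54, each still called, and 11 genes of the list were higher and 0 lower (1 lower at an unadjusted p under 0.05). Of all genes in that fit, 18.6% were higher and 19.4% lower. The gene lower in the count fit was the giant titin gene Ttn, at -0.67 ± 0.22 (edgeR adjusted p = 0.018), which without labelled KO heart 2 or with the trends removed did not pass. Of the 11 higher genes, 9 were called higher in both fits, and Myh6 and Myh7b lost the call.

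The heavy chain genes both rose in the count fit. Myh6 averaged 41898 ± 3609 CPM in labelled KO hearts and 28586 ± 1114 CPM in WT hearts (SD, n = 4 and 5), a log2 fold change of 0.55 ± 0.14 (SE, edgeR adjusted p = 0.0052). With the trends removed it was 0.12 and not called (edgeR adjusted p = 0.296). Myh7, the slow heavy chain gene of the fetal mouse ventricle, had 3398, 2140, 2612 and 4693 CPM in labelled KO hearts 1 to 4, against 169, 235, 1408, 183 and 1491 CPM in WT hearts 1 to 5. In CPM, WT hearts 3 and 5 stood apart from the other WT hearts and below every labelled KO heart. The deposited Myh7 FPKM of WT hearts 1 to 5 was 582, 324, 590, 439 and 710, which does not show that split. Labelled KO hearts had 1882 to 3198 FPKM. Why the 2 measures differ was not tested. For Myh7 the log2 fold change was 2.21 ± 0.58 (SE, edgeR adjusted p = 0.0052), and 1.77 with the trends removed (edgeR adjusted p = 0.0256). The cardiomyocyte markers, a list that holds Myh6, summed to 64634 to 73278 CPM in labelled KO hearts and 52542 to 57092 CPM in WT hearts, with 2 of 7 higher and 1 lower in the count fit, but 0 higher and 2 lower with the trends removed. The 7 skeletal muscle markers, 3 of them tested and 1 higher (1 higher and 1 lower with the trends removed), summed to 4.03 to 5.41 CPM in labelled KO hearts and 2.60 to 4.76 CPM in WT hearts. Beside both marker counts, the shares over all genes tested were 26.2% higher and 25.2% lower, or 18.6% and 19.4% with the trends removed. The part of either marker list in the results was not tested.

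**Figure D4:**
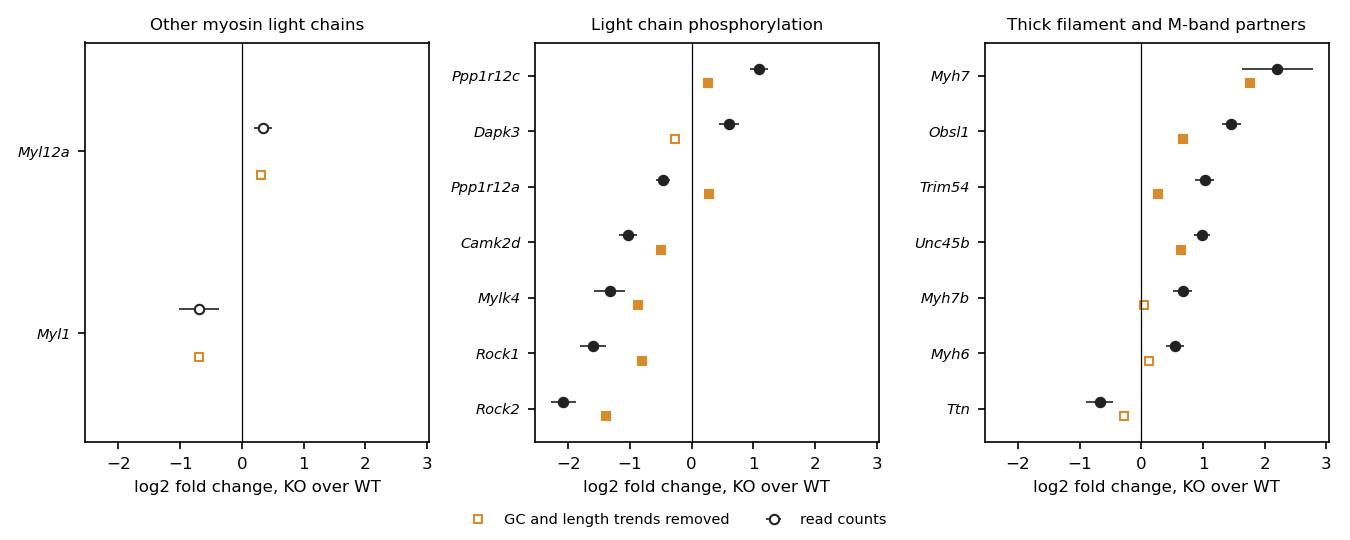
Log2 fold change, labelled KO over WT (x axes), of the genes named in the text from 3 lists, from read counts with standard errors (circles) and with GC and length trends removed (squares); filled symbols mark an adjusted p under 0.05. Myl12a and Myl1 lie on either side of 0 and are not filled, Rock2 lies farthest below 0 at -2.08, and Ttn is the one thick filament or M-band partner drawn below 0.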

How the data were processed

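Whole-number read counts per gene were deposited as 1 table for all hearts, and FPKM values as another. Per the submitters' processing notes, reads were handled on build mm10 with TopHat2 2.0.10, Cufflinks 2.1, HTSeq and Bowtie2, among other tools, whose roles those notes do not state. Annotation and strand setting: not given in the sources used here. Counts deposited by the authors were fitted with edgeR 4.0.16 in R 4.3.3 (quasi-likelihood, TMM, filterByExpr, 2 groups, no block, Benjamini-Hochberg over 12640 genes, threshold 0.05). FPKM values deposited by the authors were tested as log2(FPKM + 1) with limma 3.58.1 at a mean of at least 0.5. The trend fit adds lowess offsets (span 0.3) in GC content and transcript length. Alternatives used DESeq2 1.42.0, limma-voom, other scalings and filters, and hearts left out in turn. No 2 of the 36 pairs of hearts held identical counts. Each library came from 1 heart; nothing says how litters or cultures were arranged, so p-values measure the spread between these hearts. The script was tested on simulated data. The genes and lists were chosen with earlier results of these data known. Named genes were all 8 members, up to 4 called genes of smallest p per list (2 where none was called), Myh6 and Myh7, and the 3 genes most like each light chain gene; further names were picked once values were known. A few genes taken by this rule are not reported here; counts over lists include them. Gene positions come from GENCODE M21 and were set beside the counts by symbol.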

Additional observations from a re-analysis of the deposited data

Results flagged for a closer look

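In 46 groups of values a heart far from the rest of its group was looked for, which chance gives in about 1 in 20 groups, and 3 were found. Myom2 stood at 1454 CPM in labelled KO heart 3, far above the other labelled KO hearts. Myl7 stood at 2.31 FPKM in WT heart 1, far above the other WT hearts. Myl3 stood at 0.319 reads per Myl2 read in WT heart 1, above the other WT hearts and below every labelled KO heart.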

How the results depend on the processing

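Over the alternatives run, 138 of 147 count-based values of the 7 tested members kept their direction and side of the threshold, 2 lost the call (Myom2, above) and 7 turned direction, none of them called. The turned values were -0.013 for Myl2 (trends removed), -0.10, -0.29 and -0.67 for Myl4 (replicate block, trends removed, both together), and -0.030 for Myom1 without both shallow WT hearts, which leaving out 1 heart gave as -0.049 to 0.14 (-0.0071 without KO replicate 1, -0.049 without WT replicate 3). Of 273 values of other genes taken by the naming rule 256 kept both, 4 lost and 13 gained a call; of 112 FPKM values of members 93 kept both and 18 lost the call, and Myl7 turned to -0.087 when centred. Other light chains had 1 higher with upper-quartile factors, no filter, DESeq2, limma-voom, mitochondrial genes and Rn45s omitted or a threshold of 0.1, and 1 lower with the replicate block, trends removed, both, or a threshold of 0.1; leaving out 1 heart gave 0 to 1 each way. Phosphorylation genes had 5 higher with trends removed and 1 with the block as well; partners had 7 higher with both, and 0 lower with trends removed or both (0 to 1 on leaving out 1 heart). All genes gave 1538 higher and 1855 lower with the block and trends removed. FPKM gave 5961 higher and 769 lower as deposited and 3214 and 3593 centred, with 511 to 877 lower on leaving out 1 heart. The log2 proportion of Myl7 to Myl2, KO minus WT, was -0.023 (-0.79 to 0.56 on leaving out 1 heart) and that of Myl4 to Myl3 -1.14 (-1.40 to -0.82). Replicate numbers gave no sign of pairing the hearts: same-numbered hearts correlated at -0.26 to 0.041 over 4 pairs, and 1 KO heart correlated best with its own number. So few pairs cannot exclude a shared litter or batch. The cause of these changes was not tested. Depth limits Myl7 and Myl4, most of all in WT hearts 2 and 3.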
